A study of Oryza sativa with 6 samples.

Results

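Copalyl diphosphate synthase (CPS) and kaurene synthase-like (KSL) genes of rice (Oryza sativa) were followed in leaf blades of 2 transgenic lines. The genes were those with a symbol or synonym of CPS or KSL plus a number in a RefSeq gene table. The table holds 10 such genes, and 7 of them had a probe set tied to 1 gene, among 17905 genes measured. These were CPS1, CPS2, CPS4, KSL4, KSL5, KSL7 and KSL10; KSL2, KSL3 and KSL6 had no probe set assigned to them and were not analysed here. Each gene was read by its brightest probe set, none of them with a suffix that marks probes shared with other genes.

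The overexpressor was the Os-LBD37 line RK16331-13 and its control carried an empty vector, with 3 arrays of a 1-colour rice array per line. The plants, hygromycin-resistant, were raised hydroponically, and their 5th and 6th leaf blades were taken at a date set by emergence of the 8th. Each group is 1 transgenic line, so an effect of Os-LBD37 and other differences between the lines cannot be told apart. The promoter behind the transgene and the age of the plants are not given in the sources used here, and no probe set carried the name of Os-LBD37, whose level is therefore not analysed here. The groups follow the sample titles and sources, since the short description of an overexpressor sample names the control.

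Labdane-related diterpenoids are made from geranylgeranyl diphosphate, which a CPS enzyme folds into copalyl diphosphate of ent or syn stereochemistry and a kaurene synthase or KSL enzyme then turns into an olefin. In rice the same chemistry serves gibberellins, the hormones of stem elongation and germination, and the antimicrobial phytoalexins momilactones, phytocassanes and oryzalexins. CPS1 makes the ent-copalyl diphosphate used for gibberellins, while CPS2, also an ent enzyme, and CPS4, a syn enzyme, feed phytoalexin synthesis. Leaf phytoalexin genes are known to be switched on together by fungal elicitors, ultraviolet light and wounding.

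No difference between the lines in these 7 genes passed the test. By limma, which fits all probe sets together and moderates their variances, 0 of 7 passed an adjusted p of 0.05 over all genes, where 0.525 percent of all 17905 genes passed (0.318 percent higher and 0.207 percent lower in the overexpressor). At an unadjusted p under 0.05 the count was also 0 of 7, against 14.2 percent of all genes. The overexpressor and empty vector arrays overlapped for all 7 genes, whereas 21.2 percent of all genes did not overlap. All 7 log2 changes, overexpressor minus empty vector, were above 0, where 50.7 percent of all genes were. Their median was 0.20, against 0.01 over all genes. CPS4, CPS1 and CPS2 had the largest estimates, and those of the 4 KSL genes lay between 0.0022 and 0.20.

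CPS1, the gibberellin-route synthase, had intensities of 196.3, 543.5 and 361.5 on overexpressor replicates 1, 2 and 3. The empty vector arrays of the same numbers gave 92.1, 375.8 and 130.1. The lines overlapped because the empty vector replicate 2 array was brighter than 2 of the overexpressor arrays. The means were 367.1 ± 173.7 in the overexpressor and 199.3 ± 154.0 in the empty vector line (SD, n = 3 each). The log2 change was 0.95 ± 0.56 (SE; limma adjusted p = 0.522), with a 95% interval from -0.37 to 2.27, or 0.775-fold to 4.83-fold. Among arrays with the same replicate number the overexpressor was brighter each time, by ratios of 2.13, 1.45 and 2.78. With the replicate number as a block the standard error was 0.28 and the gene still did not pass (limma adjusted p = 0.168). The estimate was 0.57 without empty vector replicate 1, 0.62 without overexpressor replicate 2 and 1.50 without empty vector replicate 2.

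CPS2, the ent-copalyl diphosphate synthase of phytocassane and oryzalexin synthesis, was well above background on all 6 arrays. It gave 1040.4, 1027.8 and 922.7 in the overexpressor, against 1239.7, 494.3 and 452.6 in the empty vector line. The 3 overexpressor arrays lay close together and above empty vector replicates 2 and 3, but empty vector replicate 1 was the brightest of all. Its log2 change was 0.60 ± 0.39 (SE, n = 3 arrays each; limma, adjusted p = 0.571), with a 95% interval from -0.31 to 1.50. Without empty vector replicate 1 the estimate was 1.05, and it still did not pass (limma adjusted p = 0.166). It was 0.40 without empty vector replicate 2 and 0.34 without empty vector replicate 3.

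CPS4, the syn-copalyl diphosphate synthase of momilactone synthesis, was at 192.1, 79 and 127.2 in the overexpressor, above background each time. In the empty vector line it was at 169.8, 18.6 and 40, and replicate 2 was below its array's background of 31.4. The log2 change was 0.99 ± 0.66 (SE, n = 3 arrays each; limma, adjusted p = 0.577), with a 95% interval from -0.55 to 2.53, and 0.84 with values under background set to background. CPS1 and CPS4 were the 2 of 7 genes brighter in the overexpressor in all 3 same-number pairs, where 22.6 percent of all genes were; 0 of 7 were dimmer in all 3, against 20.2 percent. Removal of empty vector replicate 1 took the CPS4 estimate to 1.68, and removal of empty vector replicate 2 took it to 0.47.

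**Figure D1:**
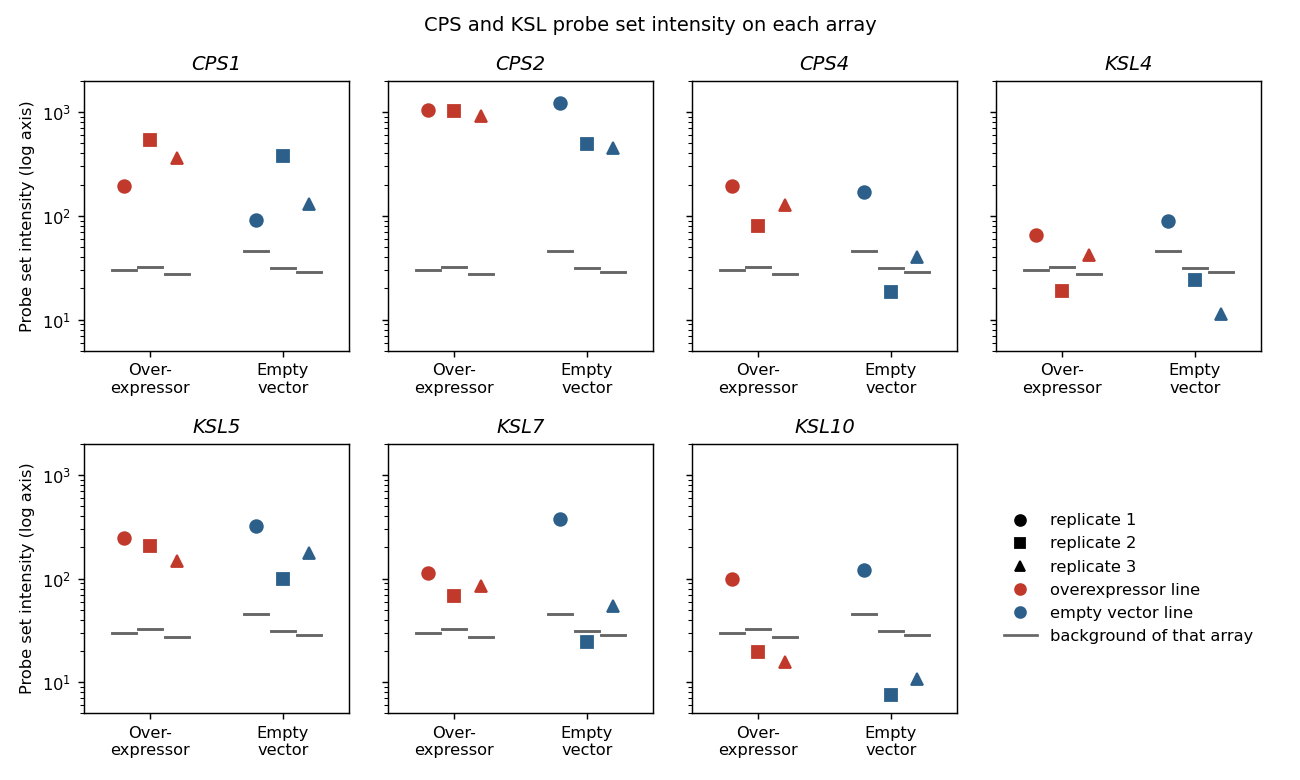
Probe set intensity (log axis) of the 7 CPS and KSL genes on each array, with overexpressor arrays on the left and empty vector arrays on the right of each panel. Symbols mark replicate numbers and grey bars the background of each array. For the 6 genes other than CPS1 the circle of replicate 1 is the highest in both lines, and for CPS1 it is the lowest.

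The KSL enzymes act on the products of CPS2 or CPS4. KSL4 makes syn-pimaradiene for the momilactones, from the CPS4 product. Its intensities were 66.1, 19 and 42 in the overexpressor and 88.5, 24.2 and 11.3 in the empty vector line. It exceeded background on 2 of 3 arrays of the overexpressor and 1 of 3 of the empty vector line. KSL4 had a log2 change of 0.18 ± 0.57 (SE, n = 3 arrays each; limma, adjusted p = 0.93; 95% interval from -1.17 to 1.53).

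KSL7 makes ent-cassadiene for the phytocassanes, from the CPS2 product. It was at 114.3, 68 and 84.9 in the overexpressor, against 375.2, 24.2 and 53.9 in the empty vector line. Empty vector replicate 1 was more than 3 times as bright as any overexpressor array, and the other 2 empty vector arrays were below all overexpressor arrays. Empty vector replicate 2 was below its array's background of 31.4. The log2 change of 0.0022 ± 0.80 (SE, n = 3 arrays each; limma, adjusted p = 0.999) came with a 95% interval from -1.87 to 1.88. Without empty vector replicate 1 the estimate was 0.96, and without empty vector replicate 2 it was -0.68. A second, dimmer probe set for KSL7 was below background on all 6 arrays.

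KSL5, an ent-pimaradiene synthase in japonica rice, was above background on all 6 arrays. Its values were 245.5, 205.0 and 149.1 in the overexpressor, against 318.7, 98.1 and 176.1 in the empty vector line. For KSL5 the log2 change was 0.13 ± 0.44 (SE, n = 3 arrays each; limma, adjusted p = 0.936; 95% interval from -0.90 to 1.15).

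KSL10 makes ent-sandaracopimaradiene for the oryzalexins. It was at 99, 19.6 and 15.7 in the overexpressor and at 121.4, 7.51 and 10.7 in the empty vector line. It was above background only on the replicate 1 array of each line. KSL10 had a log2 change of 0.20 ± 0.80 (SE, n = 3 arrays each; limma, adjusted p = 0.947), with a 95% interval from -1.67 to 2.06, and it was -0.09 with values under background set to background.

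**Figure D2:**
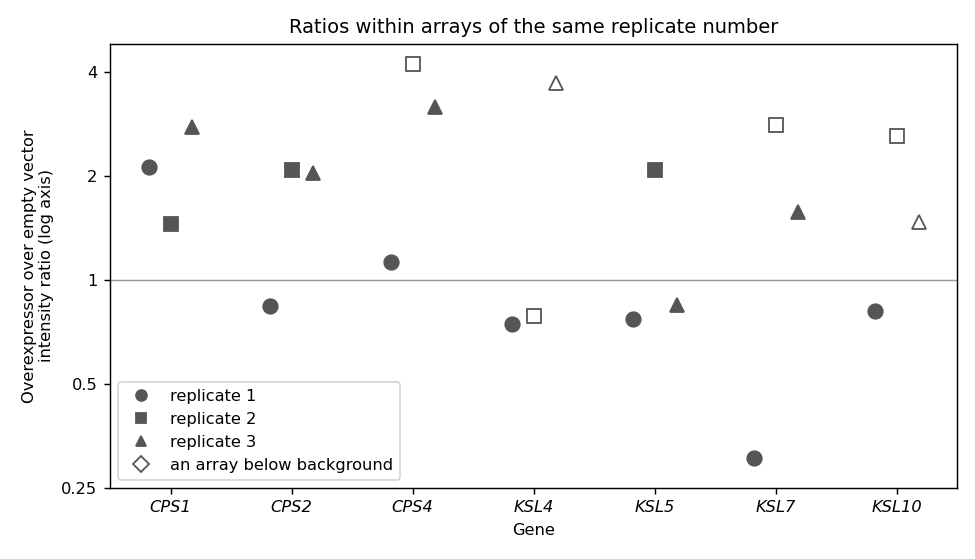
Ratio of overexpressor over empty vector intensity (log axis) within arrays of the same replicate number, for the 7 genes. Open symbols are ratios in which an array was below its background; CPS1 and CPS4 have all 3 ratios above 1, while KSL7 runs from 0.305 to 2.81.

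The 6 genes other than CPS1 shared a profile over replicate numbers. In both lines the replicate 1 array was the brightest for CPS2, CPS4, KSL4, KSL5, KSL7 and KSL10, where 15.4 percent of all genes, and 15.7 percent of those above background on at least 3 arrays, had that order. CPS1 ran the opposite way, with replicate 1 the dimmest in both lines, as in 8.38 percent of all genes and 8.59 percent of those above background on at least 3 arrays, and replicate 2 the brightest, as in 17.5 percent. In 5 of the 7 genes the brightest of all 6 arrays was empty vector replicate 1, against 14.8 percent of all genes. This array also had the highest background, 45.4 against 27.3 to 32.4 on the others, and its part in these values was not tested. The order over replicates was noticed after the values were seen and is given as a description; genes that are switched on together are not independent points.

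The spread between arrays was wider in the empty vector line for all 7 genes, where 50.0 percent of all genes, and 50.1 percent of those above background on at least 3 arrays, had that order. The brightest array exceeded the dimmest 1.13-fold to 6.31-fold in the overexpressor and 2.74-fold to 16.2-fold in the empty vector line. The narrowest was CPS2 in the overexpressor and the widest was KSL10 in the empty vector line, whose dim values lay below background. KSL7 spanned 1.68-fold in the overexpressor and 15.5-fold in the empty vector line, where its dimmest value lay below background. The dimmest empty vector values of CPS4 and KSL4 were below background too.

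The replicate 2 arrays, on which CPS1 was brightest, also differed from the others in the morning clock gene CCA1. CCA1 was at 611.3, 18627.3 and 624.2 in the overexpressor, against 602.1, 5240.8 and 682.1 in the empty vector line. Empty vector replicate 2 also had the strongest bias toward 3 prime ends, which reflects RNA integrity, with a mean log2 ratio over the 5 prime ends of 2.62 in control transcripts. This ratio was 1.76 to 1.87 in the overexpressor and 1.39 and 1.41 on the other empty vector arrays. The part of either in the results was not tested. Without both replicate 2 arrays the CPS1 log2 change was 1.17 (limma adjusted p = 0.18), and those of KSL5 and KSL7 were -0.29 and -0.53.

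CPS2, KSL5, KSL7, CPS4 and KSL4 sit in 2 clusters, beside genes for enzymes that oxidize such diterpenes, and KSL10 is in neither cluster. In the gene table, CYP76M5, CYP76M8, KSL7, CYP71Z6, CYP71Z7, CPS2, KSL5, KSL6 and CYP76M6 stand in that order, with 1 unnamed protein-coding gene, LOC4329723, before KSL7. The other cluster runs CPS4, CYP99A3, OsMAS, KSL4 and CYP99A2, with 1 unnamed gene after CYP99A3. Of the 9 genes measured in the CPS2 cluster 0 passed and 0 had an unadjusted p under 0.05; 7 log2 changes were above 0 and 2 below, with a median of 0.13. Of the 5 measured in the CPS4 cluster 0 passed and 1 had an unadjusted limma p under 0.05, where 14.2 percent of all genes did. All 5 log2 changes were above 0, with a median of 0.59. Replicate 1 was the brightest array in both lines for 7 of these 9 and 4 of these 5 genes, against 15.4 percent of all genes. These counts include CPS2, KSL5, KSL7, CPS4 and KSL4, whose order was already given above.

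CYP99A3, for a cytochrome P450 that oxidizes syn-pimaradiene on the way to momilactones, stood furthest apart. It was at 293.5, 257.8 and 239.7 in the overexpressor, against 113.1, 80.6 and 68.6 in the empty vector line, and the lines did not overlap. The log2 change was 1.45 ± 0.30 (SE, n = 3 arrays each) and did not pass (limma adjusted p = 0.0898; 0.0785 with the replicate block). CYP99A2, its close relative in the cluster, was at 223.6, 104.4 and 229.5 in the overexpressor and at 283.5, 108.4 and 39.2 in the empty vector line, and these overlapped. OsMAS, for the dehydrogenase that completes momilactone A, had a log2 change of 0.54 ± 0.66 (limma adjusted p = 0.777).

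In the CPS2 cluster, CYP71Z6 was the 1 of 9 measured genes whose lines did not overlap, where 21.2 percent of all genes did not. It was at 1496.5, 1668.0 and 1372.0 in the overexpressor, against 1245.7, 407.9 and 1006.5 in the empty vector line. Its log2 change was 0.90 ± 0.40 (SE, n = 3 arrays each; limma, adjusted p = 0.381). CYP71Z7, for a phytocassane hydroxylase next to it, had a log2 change of 0.35 ± 0.70 (limma adjusted p = 0.879), with empty vector replicate 1 at 840.2 and no other array above 467.0. CYP76M8, for another hydroxylase of these olefins, had a log2 change of 0.05 ± 0.43 (limma adjusted p = 0.976), from a probe set of a type that can cross-hybridize.

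**Figure D3:**
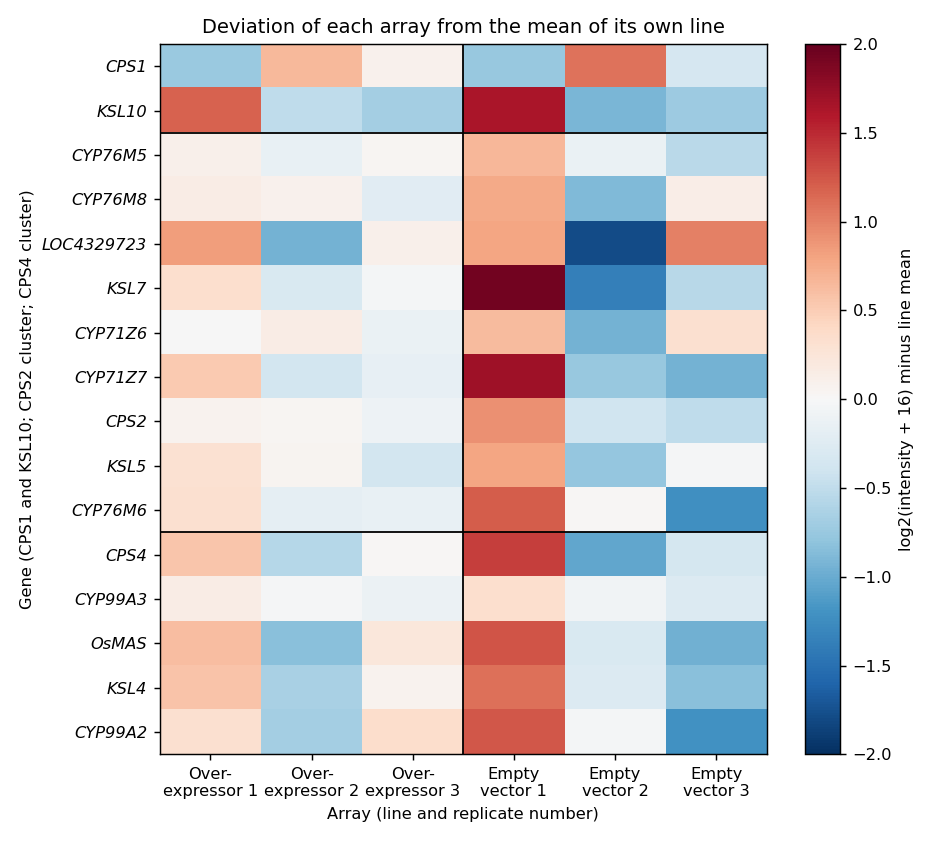
Deviation of log2(intensity + 16) on each array from the mean of its own line, for CPS1 and KSL10 (top), the measured genes of the CPS2 cluster (middle) and those of the CPS4 cluster (bottom). The empty vector replicate 1 column is above its line mean for all genes shown except CPS1, and the overexpressor columns vary less.

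Genes before and after the CPS and KSL steps were counted from lists matched by name. Upstream, the plastid MEP pathway makes the isoprenoid precursors: 0 of 5 genes measured passed by limma and 0 had an unadjusted p under 0.05. ISPH, for its last enzyme, was at 5706.9, 23214.3 and 7949.6 in the overexpressor and at 7100.1, 18041.0 and 8011.9 in the empty vector line. It was thus brightest on the replicate 2 arrays of both lines, as CPS1 was, with a log2 change of 0.01 ± 0.58 (limma adjusted p = 0.995). ISPF, with the smallest p of the 5, had a log2 change of -0.33 ± 0.23 (limma adjusted p = 0.598).

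After CPS1 and a kaurene synthase, whose gene was not analysed here, gibberellin synthesis includes kaurene oxidase, kaurenoic acid oxidase (KAO) and the gibberellin 20-oxidases. Of 6 genes measured that matched these steps by name 0 passed by limma, and 4 had an unadjusted p under 0.05, where 14.2 percent of all genes did. Of their log2 changes 2 were above 0 and 4 below, with a median of -0.71. The 2 above 0, KO1 and OsKO5, also stand on the list of phytoalexin P450s given below, as D35 does. D35, for the kaurene oxidase whose loss makes dwarf rice, was at 388.2, 249.0 and 356.9 in the overexpressor, against 864.0, 889.0 and 799.8 in the empty vector line. The lines did not overlap, and the log2 change of -1.34 ± 0.24 (SE, n = 3 arrays each) did not pass (limma adjusted p = 0.0734; 0.0655 with the replicate block). Both D35 probe sets are of a type that can cross-hybridize, and a neighbouring gene shares some of its synonyms.

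GA20OX2, the gibberellin 20-oxidase of the semi-dwarf locus sd1, was at 17.7, 88 and 11.1 in the overexpressor, against 123.1, 341.1 and 112.1 in the empty vector line. It exceeded background on 1 of 3 overexpressor arrays, and its log2 change of -2.02 ± 0.64 did not pass (limma adjusted p = 0.215), nor did it with the replicate block (limma adjusted p = 0.057). KAO was at 163.2, 286.5 and 130.3 in the overexpressor and at 305.7, 452.0 and 351.0 in the empty vector line, and its log2 change of -0.93 ± 0.35 did not pass (limma adjusted p = 0.28). KO1, also named CYP701A8, a kaurene oxidase-like gene near D35, had a log2 change of 1.00 ± 0.40 (limma adjusted p = 0.315). CPS1 thus had an estimate above 0 while D35, KAO and GA20OX2 had estimates below 0, and no difference between these genes was tested. On the breakdown side, EUI, for a gibberellin-inactivating P450, had a log2 change of 0.20 ± 0.36 (limma adjusted p = 0.861). Of 6 gibberellin signalling genes 0 passed and 1 had an unadjusted limma p under 0.05, against 14.2 percent of all genes. This was SLR1, the DELLA repressor, at -0.76 ± 0.26 (limma adjusted p = 0.244).

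**Figure D4:**
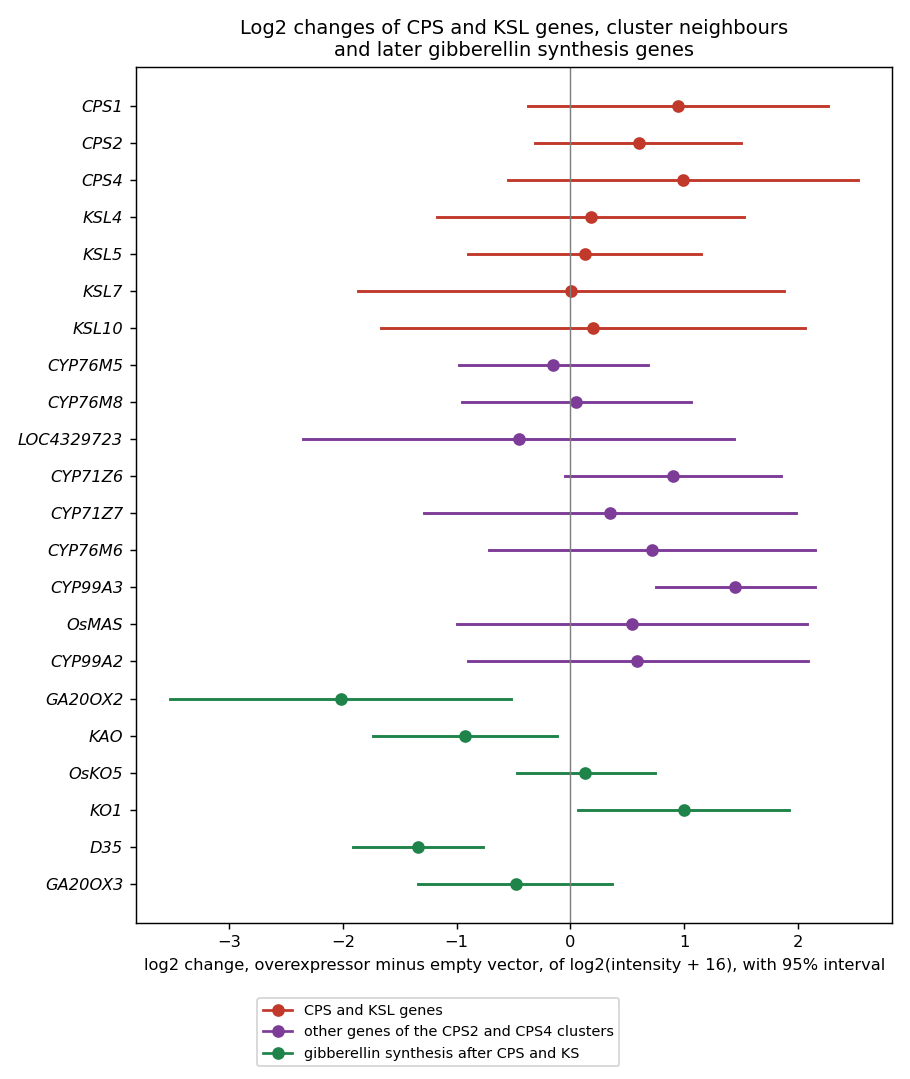
Log2 change, overexpressor minus empty vector, of log2(intensity + 16), with points for limma estimates and lines for 95% intervals, n = 3 arrays per line. All 7 CPS and KSL intervals cross 0; the intervals that do not cross 0, for CYP99A3, KO1, GA20OX2, KAO and D35, are not adjusted for the number of genes, and none of these genes passed after adjustment.

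Of 12 genes measured for phytoalexin P450s and dehydrogenases, 3 also stand on the gibberellin synthesis list. Of the 12, 0 passed and 3 had an unadjusted limma p under 0.05, where 14.2 percent of all genes did. In this list 10 log2 changes were above 0 and 2 below, with a median of 0.57. D35, with the smallest p, is 1 of the 3 shared genes. Of 9 genes for regulators of phytoalexin genes 0 passed and 3 had an unadjusted limma p under 0.05, against 14.2 percent of all genes. With the replicate block 2 of the 9 rose, against 1.32 percent of all genes passing in that fit. These were the transcription factor genes WRKY62 and WRKY76. The list of regulators does not separate activators from repressors. WRKY76 was at 5468.5, 1451.2 and 2624.1 in the overexpressor, against 874.7, 330.5 and 328.7 in the empty vector line. Its log2 change was 2.55 ± 0.56 (limma adjusted p = 0.1; 0.0214 with the replicate block), and that of WRKY62 was 3.22 ± 0.66 (0.0877; 0.0169 with the block). Replicate 1 was the brightest array in both lines for WRKY76, as for the CPS and KSL genes other than CPS1. MAPK5, for a defence-related MAP kinase, had a log2 change of 1.36 ± 0.41 (limma adjusted p = 0.192). OsbZIP79, for a bZIP factor, had -0.36 ± 0.46 (limma adjusted p = 0.79).

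Of 13 pathogenesis-related and chitinase genes 0 passed by limma and 4 had an unadjusted p under 0.05, where 14.2 percent of all genes did. Of their log2 changes 6 were above 0 and 7 below. Cht4, for a chitinase, had the smallest p, with -1.94 ± 0.55 (limma adjusted p = 0.175). PBZ1, a PR10-type defence gene often read beside phytoalexin genes, was at 16251.8, 18238.6 and 12564.9 in the overexpressor, against 13104.9, 4920.2 and 2700.4 in the empty vector line. Empty vector replicate 1 fell among the overexpressor arrays and the other 2 lay below them. Its log2 change was 1.47 ± 0.53 (limma adjusted p = 0.271).

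Likeness of profile was taken as Pearson's r of log2 values over the 6 arrays with CPS4, the gene of this family with the largest change among those above background on all arrays of a line. Among 2123 other named genes above background on at least 3 arrays, the closest were SDH7 (r = 0.992), OsUEL-2 (r = 0.98), CESA4 (r = 0.979), OsPUB24 (r = 0.975) and AMT3-3 (r = 0.964). CESA4, for a cellulose synthase subunit, was at 162.3, 128.5 and 130.1 in the overexpressor, against 157.1, 66.4 and 79.6 in the empty vector line. As for CPS4, replicate 1 was the brightest and replicate 2 the dimmest in both lines. These r values describe 6 arrays of 2 lines, picked as the highest of many.

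The share of rice probe sets above background lay between 50.9 and 55.4 percent over the 6 arrays. Of 6 leaf blade markers 5 were above background on all 6 arrays and 0 passed, with summed intensities of 62785 to 127898 in the overexpressor and 95349 to 144870 in the empty vector line. All 6 log2 changes were below 0, with a median of -0.29, where 50.7 percent of all genes were above 0. Of 23 root markers 10 were above background on all arrays, 5 on none and 0 passed, with sums of 14736 to 19443 in the overexpressor and 18851 to 22905 in the empty vector line. The brightest of the 23 on every array was osysl6, at 5646.8 to 10844.0 over the 6 arrays. With the replicate block 1 root marker fell, NAS3, for a nicotianamine synthase, with a log2 change of -2.63 (limma adjusted p = 0.0299, against 0.102 without the block). Of 16 panicle and floral markers 6 were above background on all arrays and 6 on none, with sums of 2167 to 8243 in the overexpressor and 5584 to 7193 in the empty vector line. One of these, Lhs1, fell and was below background on all overexpressor arrays (limma adjusted p = 0.00794). The brightest of the 16 was LOC4343851, matched by the name MADS2, at 1317.7 to 6631.3 over the 6 arrays. The root and floral sums thus rest in large part on single genes that are bright in these leaf blades. They were not tested as measures of root or panicle RNA. In leaf blades made of several cell types, fewer cells of a type and less RNA per cell cannot be told apart, and the part of these markers in the results was not tested.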

How the data were processed

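Total RNA from leaf blades was hybridized to a 1-colour Affymetrix rice array, 3 arrays per line. The deposited intensity values, 1 per probe set on a linear scale, had the same trimmed mean of 500.1 on all 6 arrays (2 percent left out at each end). How the authors summarized the probes is not stated in the labels used here. Of 57381 probe sets 187 were controls; the platform annotation gave 1 gene to 22436 of the other 57194, several to 95 and none to 34663. Gene names came from a RefSeq table (assembly ASM3414082v1), used for names and neighbours only. For each array, background was set at percentile 95 of the intensities of 132 controls for transcripts that rice lacks.

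Deposited intensities were taken as log2(intensity + 16), so fold changes of dim genes are understated. The model was limma 3.58.1 in R 4.3.3, lmFit and eBayes with a trend, over all 57194 probe sets. P-values were Benjamini-Hochberg adjusted, two-sided, over the brightest probe set of each of 17905 genes, with a threshold of 0.05. The steps were tested on simulated data. No pair of arrays shared more than 0.00349 percent identical values. The labels speak of independent hybridizations and not of separate plants, so the p-values reflect only how far these arrays differ, which may be technical. The number of arrays limits the precision; an exact permutation test of 3 against 3 cannot go below p = 0.1.

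The sample titles number the replicates alike in both lines. Deviations from the line means correlated at 0.302, 0.364 and 0.219 for arrays with the same number and at -0.381 to 0.254 for others, and the numbers were treated as pairs in an alternative with a replicate block.

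The genes and lists were chosen with earlier results of these data known. Of each related list, members that passed, the member with the smallest p and members of the CPS or KSL clusters were to be named. ISPH, GA20OX2, KAO, KO1, WRKY76, MAPK5, OsbZIP79, PBZ1 and CCA1 were added after their values were seen. The names IDI1 and IDI2 were left off the precursor list, after values were seen, because they also denote methionine salvage genes. Promoter and protein motifs were not analysed here.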

Additional observations from a re-analysis of the deposited data

How the results depend on the processing

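The 7 CPS and KSL genes stayed short of the threshold under all 17 alternatives in which each was tested, with a lowest limma adjusted p of 0.166; KSL10 did not pass the filter on dim probe sets and had 16. CPS1, CPS2 and CPS4 kept estimates above 0 in 17 of 17, but with 1 array left out these ran from 0.57 to 1.50, from 0.34 to 1.05 and from 0.47 to 1.68 in that order. KSL estimates changed sign. Without both replicate 2 arrays they were -0.29 for KSL5, -0.53 for KSL7 and -0.0042 for KSL10. With values under background set to background, an alternative chosen after seeing the data, they were -0.08 for KSL7 and -0.09 for KSL10. KSL7 was also at -0.13 with a pseudocount of 64, -0.06 after quantile normalization and -0.20 as the mean of its probe sets. Leaving out 1 array at a time gave -0.24 to 0.73 for KSL4, -0.26 to 0.52 for KSL5, -0.68 to 0.96 for KSL7 and -0.40 to 1.02 for KSL10. The cause of these changes was not tested.

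Over all genes 94 passed, against 171 with median centring, 1 with an ordinary linear model, 237 with the replicate block, 241 without both replicate 2 arrays, 32 adjusted over all probe sets, 686 with values set to background, and 4 to 50 with 1 array left out. On the related lists 0 passed, against 2 with the replicate block (WRKY62 and WRKY76) and 4 with values set to background (those and CYP99A3 and D35). The replicate block changed no other call of a CPS, KSL or related pathway gene; among the tissue markers it added NAS3. KSL10 was above background on 2 of 6 arrays and KSL4 on 3 of 6, which limits what their values show.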
